A study of Mus musculus with 2 samples.

Results

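The 10 genes examined here carry the MHC class I antigen presentation pathway, namely H2-K1, H2-D1, B2m, Tap1, Tap2, Tapbp, Psmb8, Psmb9, Psmb10 and Nlrc5. They were taken by gene symbol, with no measured value in the rule, and each had 1 entry among the 44291 genes measured. The RNA-seq was performed on primary fibro-adipogenic progenitors (FAPs) of WT mice, which are mesenchymal cells of muscle able to form adipocytes. One group received PRP (platelet-rich plasma) and the control group received vehicle. Both groups were under adipogenic differentiation, in medium that held insulin at 10 µg/ml, dexamethasone at 0.25 µM and IBMX at 0.5 mM, with 20% FBS in DMEM. Dexamethasone is a glucocorticoid and IBMX raises cyclic AMP, and the control culture had them too. Each group had 1 library. The labels write PRP, whereas the study text describes a transcriptome of FAPs given exosomes isolated from the PRP of young human donors. The names PRP and control are kept here. The cells had been isolated from hind-limb muscle of C57BL/6 mice by flow cytometry. Each library is thus a bulk culture of sorted cells, and how many animals stand behind it is not given in the sources used here.

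MHC class I molecules display short peptides from inside the cell to CD8 T cells, and natural killer cells read their absence. The proteasome cuts proteins into peptides, the transporter TAP moves the peptides into the endoplasmic reticulum, the loading complex fits them into a heavy chain bound to beta-2 microglobulin, and the finished molecule travels to the surface. Nearly all nucleated cells make the pathway at some level, and interferons raise it in fibroblasts and other mesenchymal cells through IRF1 and the transactivator NLRC5.

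The deposited values are FPKM, reads scaled by exon length and library size. The totals of reads assigned to genes were inferred from the FPKM values and exon lengths, at 40120843 with PRP and 34139741 in control. The values of all 10 genes came out as whole reads with the exon lengths of an annotation release (GENCODE M21), within 0.001 reads, which gave the counting error of each value. An FPKM ratio below is PRP divided by control, and its 95% interval is an exact Clopper-Pearson interval of the PRP share of the gene's fragments. These intervals cover counting error only, and whether duplicate reads were collapsed is not given in the sources used here. With no second library in either group the differences have no replicate check, no p-value is given, and each difference is one between these libraries. In bulk RNA a change in the number of cells that express a gene cannot be told apart from a change in the RNA per cell.

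Gene coordinates are those of GENCODE M21 on GRCm38 (mm10). The promoters of the heavy chain genes are shown first, since H2-K1 and H2-D1 carry the same short motifs. The windows come from RefSeq promoters (GRCm38.p6), which run from 250 bases before to 50 bases after a start site. Of the 10 genes 8 had a promoter in that table, and Tap2 and Nlrc5 did not. Capitals mark GGGNNTTCC, a core of the NF-kB site. It lay at chr17:34000439-34000468 on the minus strand for H2-K1 and at chr17:35262913-35262942 on the plus strand for H2-D1.
H2-K1: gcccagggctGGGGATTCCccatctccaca
H2-D1: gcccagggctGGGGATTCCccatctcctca
Just downstream, at chr17:34000418-34000447 and chr17:35262934-35262963, both carry the opposite strand of GAANNGAAA, a shortened interferon-stimulated response element that was searched for only after the promoters had been read.
H2-K1: atctccacagTTTCACTTCtgcacctaacc
H2-D1: atctcctcagTTTCACTTCtgcacctaacc
At chr17:34000371-34000400 and chr17:35262981-35263010 both carry TGACGC, the X2 box, which is part of the SXY module on which NLRC5 acts.
H2-K1: tccggacactgtTGACGCgcagtcagctct
H2-D1: ccgggacactgaTGACGCgctggcaggtct
Over 100 bases that begin 40 bases before the NF-kB core, 96 bases were identical between the promoters of H2-K1 and H2-D1. This stretch holds the NF-kB core and the shortened response element and ends before the X2 box. Both strands were searched for every motif.

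The remaining windows show what the other promoters hold. In B2m capitals mark the full interferon-stimulated response element, 2 copies of GAAA with 2 bases between them, at chr2:122147538-122147567 on the plus strand.
B2m: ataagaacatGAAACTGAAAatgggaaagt
In Psmb8 capitals mark TTCNNNGAA, a gamma-activated site, at chr17:34198088-34198117 on the plus strand.
Psmb8: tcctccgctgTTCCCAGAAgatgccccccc
Tap1 and Psmb9 are transcribed away from each other from a shared stretch, and their Y box, ATTGG, is the same bases read on opposite strands, at chr17:34187322-34187351 (plus) and chr17:34187321-34187350 (minus).
Tap1: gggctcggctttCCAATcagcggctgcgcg
Psmb9: gcgcagccgctgATTGGaaagccgagcccc

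The RefSeq start sites of H2-D1, Psmb8, Psmb9 and Tapbp lie inside the M21 gene spans given below, so their windows do too. Motifs of this length are common. Among the 32851 RefSeq promoters the full interferon-stimulated response element was in 3.44%, its shortened form in 7.52%, the gamma-activated site in 8.30%, the NF-kB core in 5.82%, the X2 box in 7.40% and the Y box in 37.4%. Of the 8 genes with a promoter, the full element was in 1 (B2m), the gamma-activated site in 1 (Psmb8), the NF-kB core and the X2 box in 2 each (H2-K1 and H2-D1), and the Y box in 6. A match is a description of letters and not a measured binding site, and the letters were not found in the Psmb10 window for any of these motifs.

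All 10 genes were higher in the PRP library, by FPKM ratios of 1.05 to 2.36. The counting interval lay above 1 for 8 of the 10 and included 1 for Tap2 and Tapbp. A mean FPKM of at least 1 was reached by 9 of the 10, all but Psmb9. Of those 9, 7 had an interval above 1, against 26.1% of the 12369 tested genes with an interval, and another 26.1% of those had an interval below 1. On the scale log2(FPKM + 1), on which PRP minus control is called the log2 fold change below, 9 of 9 were higher, against 50.9% of the 13401 tested genes. At least 1.5-fold higher on that scale were 3 of the 9 (H2-D1, Tap1 and Nlrc5), against 6.15% of the tested genes, and none of the 9 was at least 2-fold higher on it, as 2.00% of the tested genes were. The median log2 fold change of the 9 genes was 0.39, whereas that of all tested genes was 0.01, with the middle 50% between -0.19 and 0.21 and 95% between -0.74 and 0.89.

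**Figure D1:**
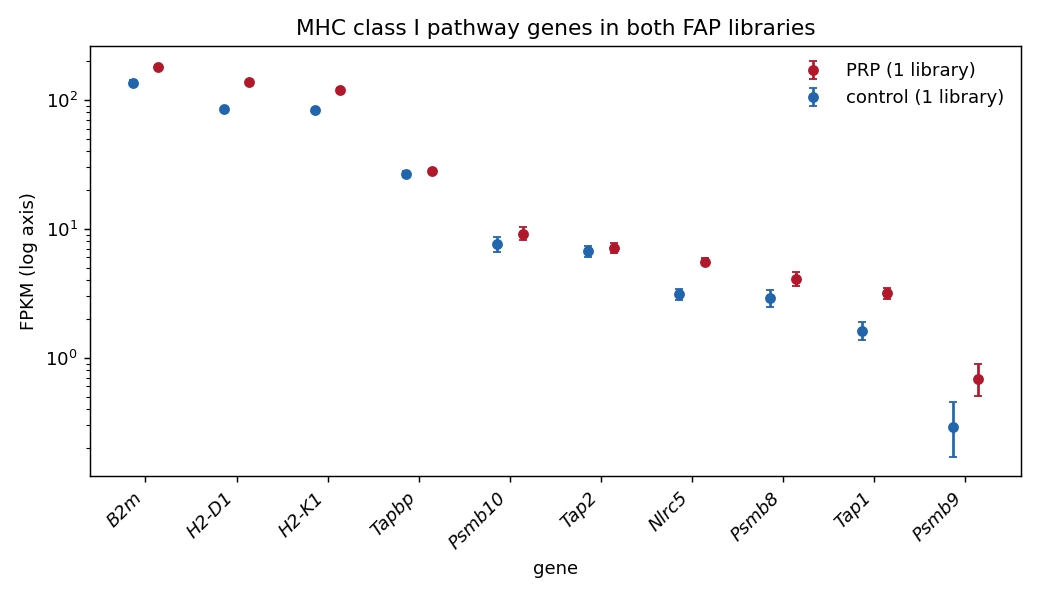
FPKM on a log axis for the 10 genes in the PRP library (red) and the control library (blue), ordered by level, with bars for the exact 95% Poisson counting interval, which is smaller than the point for the highest genes. Each gene sits higher in the PRP library, the order is the same in both, and the bars of both libraries overlap for Tap2, Tapbp and Psmb10.

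H2-K1 and H2-D1 encode the classical heavy chains, which hold the peptide. H2-K1 (chr17:33996017-34000347, minus strand) had 120.4 FPKM with PRP and 83.2 in control, from 14190 and 8341 reads, a ratio of 1.45 (interval 1.39 to 1.504). H2-D1 (chr17:35262730-35267499, plus strand) had 138 and 84.5 FPKM, from 14310 and 7442 reads, a ratio of 1.64 (1.57 to 1.70). The FPKM ratio of H2-D1 to H2-K1 was 1.02 in the control library and 1.15 in the PRP library, a change of 1.13 times (1.07 to 1.19). Which of them has the higher level depends on the length used, since over principal transcript lengths H2-D1 stood at 68.7% of H2-K1 in control and at 77.7% with PRP. Class I genes resemble each other, and reads from a shared stretch can be assigned to either or lost. Of all stretches of 50 bases in the transcripts, 9.63% of those of H2-K1 and 12.8% of those of H2-D1 also occur in another gene.

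B2m encodes beta-2 microglobulin, the light chain without which most heavy chains do not reach the surface. It lies outside the MHC (chr2:122147686-122153083, plus strand) and shared no stretch of 50 bases with another gene. It had 179 FPKM with PRP and 136 in control, from 6167 and 4003 reads, a ratio of 1.31 (1.24 to 1.39). The light chain was higher by less than its partners. The ratio of H2-K1 to B2m was 1.10 times (1.03 to 1.18) and that of H2-D1 to B2m 1.25 times (1.17 to 1.34) as high in the PRP library as in the control library. B2m stood at 0.691 of the summed FPKM of H2-K1 and H2-D1 with PRP and at 0.813 in control.

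Tap1 and Tap2 encode the partner chains of the peptide transporter, which works as a heterodimer. Tap1 (chr17:34187553-34197225, plus strand) had 3.16 FPKM with PRP and 1.62 in control, from 694 and 302 reads, a ratio of 1.96 (1.61 to 2.38). Tap2 (chr17:34203527-34216321, plus strand) had 7.11 and 6.69 FPKM, from 1078 and 863 reads, a ratio of 1.06 (0.935 to 1.21). Tap1 had the largest ratio of the 9 genes that passed the filter, and Tap2 was level within counting error. Tap1 stood at 44.5% of the FPKM of Tap2 with PRP and at 24.2% in control, a ratio that was 1.84 times (1.46 to 2.31) as high with PRP. Taken over principal transcript lengths the percentages were 75.04% and 40.8%, with the same change between the libraries. Tapbp encodes tapasin, which bridges the transporter to the heavy chain and edits the peptide. It had 28.0 FPKM with PRP and 26.7 in control, from 4072 and 3310 reads, a ratio of 1.05 (0.981 to 1.12). Tapbp (chr17:33915899-33929292, plus strand) shares 29.0% of its exon bases with other genes, 4.11% with one on the same strand. Tap2 shares 18.5%, all with genes on the opposite strand. So does Psmb8 with 14.7%, and of the constitutive subunits Psmb7 with 11.8%. The kit kept strand, but the strand setting of the counting is not given in the sources used here.

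Psmb8, Psmb9 and Psmb10 encode the catalytic subunits of the immunoproteasome, which take the places of Psmb5, Psmb6 and Psmb7 in the 20S core when cells meet interferon. Psmb8 (chr17:34197721-34201454, plus strand) had 4.10 FPKM with PRP and 2.91 in control, from 556 and 336 reads, a ratio of 1.41 (1.16 to 1.72). Psmb9 (chr17:34181987-34187764, minus strand) was the lowest of the 10 genes, at 0.681 and 0.288 FPKM from 100 and 36 reads. Its ratio of 2.36 (1.36 to 4.30) was the highest and the least precise of the 10. Psmb10 (chr8:105935735-105938444, minus strand) had 9.20 and 7.59 FPKM, from 629 and 442 reads, a ratio of 1.21 (1.02 to 1.44). When the libraries were rescaled without mitochondrial genes and the 50 most abundant genes, the ratio of Psmb10 was 1.18 and its interval included 1 (0.993 to 1.41). It was the only one of the 10 genes whose interval changed sides.

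The constitutive partners lay nearer to 1 than the subunits that replace them. Psmb5 had 34.5 FPKM with PRP and 30.2 in control, a ratio of 1.14 (1.01 to 1.29). Psmb6 had 20.4 and 19.8, a ratio of 1.03 (0.927 to 1.15). Psmb7 had 26.3 and 26.1, a ratio of 1.01 (0.940 to 1.08). Each immunosubunit was therefore compared with the subunit it replaces. The FPKM of Psmb9 was 3.33% of that of Psmb6 with PRP and 1.45% in control, a ratio 2.29 times (1.32 to 3.97) as high with PRP. For Psmb8 against Psmb5 the percentages were 11.9% and 9.63%, and the change of 1.23 times had an interval that included 1 (0.985 to 1.55). For Psmb10 against Psmb7 they were 34.9% and 29.0%, and the change of 1.20 times was at the edge (0.9997 to 1.45). Of the transcript stretches of Psmb5, 54.1% occur in another gene, mostly Gm3375, so its own value is uncertain. Set against the median FPKM of the 14 constitutive 20S subunits instead, which was 27.1 with PRP and 26.9 in control, Psmb8 stood at 15.1% and 10.8%, Psmb9 at 2.51% and 1.07%, and Psmb10 at 33.9% and 28.2%. Per length the mRNA of each immunosubunit was thus below that of its constitutive partner in both libraries.

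Nlrc5 encodes the transactivator of class I genes, which drives the heavy chains, B2m, Tap1 and Psmb9 through the SXY module. It lies at chr8:94434356-94527272 on the plus strand. It had 5.55 FPKM with PRP and 3.10 in control, from 1891 and 900 reads, a ratio of 1.79 (1.60 to 2.00). With the pseudocount of 1 FPKM its log2 fold change of 0.67 was as large as that of Tap1 (0.67) and near that of H2-D1 (0.70). This likeness depended on the pseudocount. With 0.1 the values of Nlrc5, Tap1 and H2-D1 were 0.82, 0.93 and 0.71, and with 5 they were 0.38, 0.30 and 0.68. The ratio of Nlrc5 to Tap1 was level within counting error, at 0.914 times (0.733 to 1.14) the control value.

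**Figure D2:**
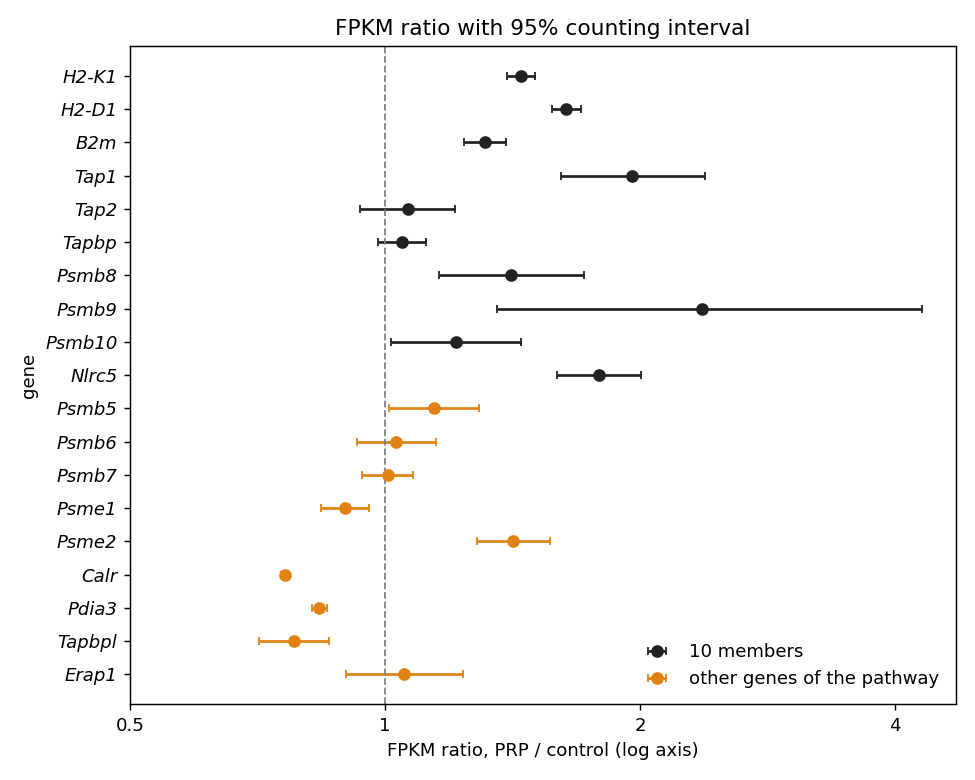
FPKM ratio of PRP to control on a log axis with its 95% counting interval, for the 10 genes (black) and for other genes of the pathway (orange). The dashed line marks 1. Tap1, Psmb9 and Nlrc5 lie farthest to the right, whereas Calr, Pdia3 and Tapbpl lie left of the line.

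The genes differed far more from each other than between the libraries. FPKM spanned 262-fold in the PRP library, from Psmb9 to B2m, and 473-fold in the control library. The order of the 10 genes by FPKM was the same in both libraries, namely B2m, H2-D1, H2-K1, Tapbp, Psmb10, Tap2, Nlrc5, Psmb8, Tap1 and Psmb9. Neighbours whose counting intervals overlapped in the control library were H2-D1 with H2-K1, Psmb10 with Tap2, and Nlrc5 with Psmb8. None of these pairs overlapped in the PRP library. B2m, H2-D1 and H2-K1 together held 88.3% of the summed FPKM of the 10 genes with PRP and 86.1% in control. The 10 genes took 0.109% of all fragments with PRP and 0.0761% in control. The order depends on the length used, because FPKM divides by the exons of all transcripts of a gene. Taken over the length of the principal transcript and scaled by the fragment total, H2-K1 led in the PRP library at 218, followed by B2m at 179 and H2-D1 at 170.

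Of the non-classical class I heavy chain genes (H2-Q, H2-T and H2-M), which present restricted peptides or act as ligands of natural killer receptors, 7 of 14 passed the filter. Of these 7, 6 were higher and 1 was lower, and their median log2 fold change was 0.61. All 6 had an interval above 1, against 26.1% of the tested genes with an interval. H2-Q6 had 3.69 FPKM with PRP and 1.49 in control, a ratio of 2.48 (1.80 to 3.46). H2-T10 had 2.33 and 0.840, a ratio of 2.78 (2.01 to 3.91). H2-T23, which encodes Qa-1, the ligand of the CD94 and NKG2A receptor, had 11.8 and 6.79, a ratio of 1.74 (1.53 to 1.99). H2-M3, which presents formylated bacterial peptides, was the one on the other side, at 6.50 and 7.29 with an interval that included 1 (0.722 to 1.10). Shared sequence differed widely within the list, as 31.97% of the 50-base stretches of H2-Q6 and 32.9% of those of H2-T10 also occur in another gene, against 0.576% of those of H2-M3. Summing the fragments removes part of that uncertainty. Over 15 H2-K, H2-D, H2-Q and H2-T genes with whole reads the summed ratio was 1.54 (1.505 to 1.58), and that of H2-K1 with H2-D1 alone was 1.54 (1.49 to 1.58). The other 13, which include H2-Q5 from outside the list and leave out the H2-M genes, gave 1.57 (1.48 to 1.67). The 14 genes of the list, H2-M3 and the other H2-M genes included, gave 1.48 (1.40 to 1.57). H2-K2 did not give whole reads and is in none of these sums. Under its first identifier it had 15.8 FPKM with PRP and 3.84 in control, a ratio of 4.11. Of 4 class I-like genes, which are more distant in sequence, 1 was higher and 3 were lower, with a median of -0.18. The intervals of 2 (Mr1 and Fcgrt) lay below 1 and those of the other 2 included 1, where 26.1% of the tested genes with an interval lay below 1. Hfe, a regulator of iron uptake, had 1.49 and 1.86 FPKM (0.802, interval 0.610 to 1.05). Cd1d1, which presents lipids, had 2.01 and 1.62 (1.24, interval 0.908 to 1.70). Fcgrt, which recycles IgG and also pairs with B2m, had 23.5 and 26.8 (0.877, interval 0.801 to 0.959).

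The chaperones that fold and load class I molecules were mostly lower with PRP. Of 7 genes for peptide loading and trimming, all of which passed the filter, 2 were higher and 5 were lower, and the median was -0.24. All 5 lower genes had an interval below 1 and none of the 7 had one above it. Of the tested genes with an interval, 26.1% lay on each side. Calr, the chaperone calreticulin, had 1289 FPKM with PRP and 1692 in control, a ratio of 0.762 (0.754 to 0.769). Tapbpl, the second peptide editor TAPBPR, had 17.8 and 22.8, a ratio of 0.781 (0.711 to 0.859). Pdia3, the oxidoreductase ERp57 that pairs with tapasin, had 273 and 326, a ratio of 0.837 (0.819 to 0.854). Calreticulin and ERp57 serve the folding of many glycoproteins. Erap1, the aminopeptidase that trims peptides in the endoplasmic reticulum, had 2.42 and 2.30, a ratio of 1.05 (0.899 to 1.24).

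The constitutive 20S core differed little. Of its 14 genes, 12 were higher and 2 were lower, with a median of 0.08. The intervals of 7 lay above 1 and that of 1 below, where 26.1% of the tested genes with an interval lay on each side. When the libraries were rescaled to the same sum, Psma2 and Psmb7 turned lower, which left 10 higher and 4 lower, and the intervals of 5 lay above 1. Psmb4 (20.8 and 16.9 FPKM, ratio 1.23), Psmb3 (12.0 and 9.72, ratio 1.23) and Psma7 (59.8 and 50.5, ratio 1.19) differed most. Of 7 proteasome activators and assembly factors, 5 were higher and 2 were lower, with a median of 0.13. Psme1 and Psme2 encode the subunits of the PA28 cap, which opens the core and is induced by interferon. They parted, since Psme2 had 30.2 FPKM with PRP and 21.3 in control, a ratio of 1.42 (1.28 to 1.56), and Psme1 had 42.5 and 47.3, a ratio of 0.897 (0.840 to 0.958). The ratio of Psme2 to Psme1 was thus 1.58 times (1.40 to 1.78) as high with PRP. Psme4, which encodes the PA200 cap, was lower, at 6.93 and 9.99 (0.693, interval 0.641 to 0.750). Psmg2, an assembly chaperone, had 5.16 and 4.23 (1.22, interval 0.966 to 1.55).

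**Figure D3:**
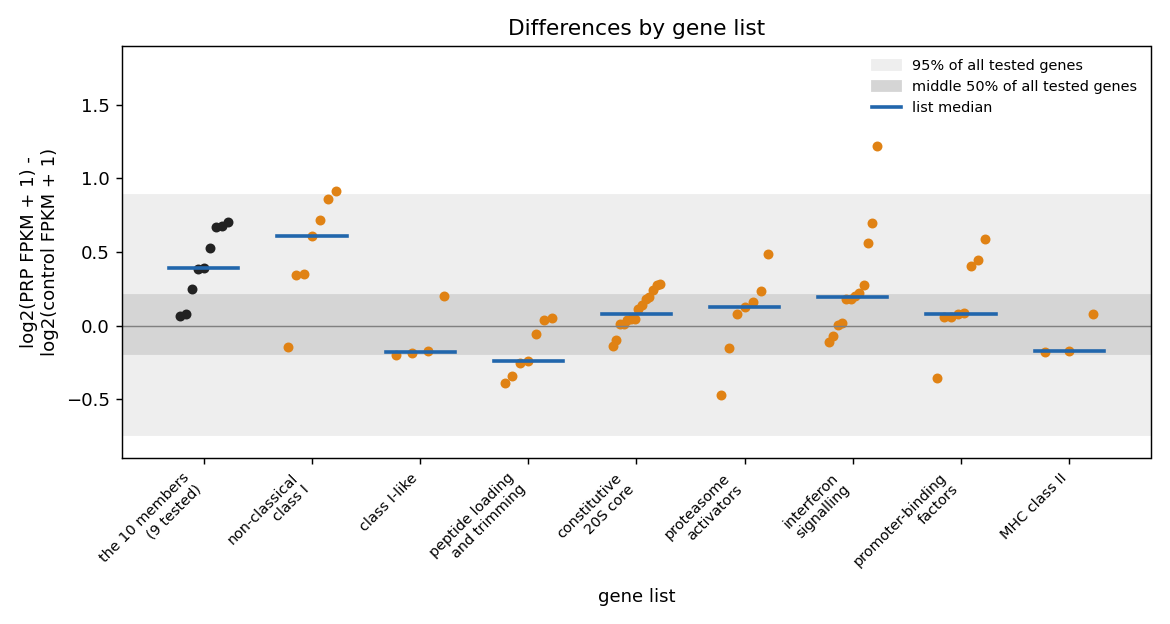
Log2 fold change (PRP minus control, with a pseudocount of 1 FPKM) of every tested gene of the 10 and of each pathway list, with list medians as blue bars and the range of all tested genes in grey. The medians of the 10 genes (0.39, 9 tested) and of the non-classical class I genes (0.61) lie above the middle 50% of tested genes, and that of peptide loading and trimming (-0.24) lies below it.

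Interferon signalling genes were examined because they control the pathway. Of 12 tested genes for the receptors, kinases and transcription factors, 10 were higher and 2 were lower, with a median of 0.19. The intervals of 7 lay above 1, that of 1 (Jak1) lay below, and Irf1 had none. Of all tested genes with an interval, 26.1% lay above 1 and 26.1% below. Ifnar1 turned lower when the libraries were rescaled to the same sum, which left 9 higher and 3 lower, and 8 were higher and 4 lower when mitochondrial and the most abundant genes were left out. The largest differences were those of the transcription factors Irf1, Stat2 and Irf9, whereas Irf2 had a ratio of 1.16 (1.06 to 1.27). Irf1, which binds the promoters of class I, Tap1 and Psmb9 genes, had 15.4 FPKM with PRP and 6.06 in control, a ratio of 2.55 and a log2 fold change of 1.22. Its values did not come out as whole reads, so it has no interval. Stat2, a subunit of the complex that type I interferons activate, had 40.1 and 24.3, a ratio of 1.65 (1.57 to 1.73). Irf9, the DNA-binding subunit of that complex, had 13.2 and 8.61, a ratio of 1.53 (1.40 to 1.67). The mRNA of the interferons themselves was at or near 0. Of 10 interferon genes 4 had an entry by that symbol, none reached the filter, and their summed FPKM was 0.274 with PRP and 0.0781 in control. Ifng, the gene of interferon gamma, had no read in either library, and Ifnb1, that of interferon beta, had 6 and 2 reads.

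NLRC5 does not bind DNA itself but docks on factors that sit on the SXY module. Of 8 genes for the RFX, NF-Y and CREB or ATF proteins of that complex, 7 were higher and 1 was lower, with a median of 0.08. The intervals of 3 lay above 1 and that of 1 (Rfx5) below, where 26.1% of the tested genes with an interval lay on each side. Rfxap had 24.96 FPKM with PRP and 16.2 in control, a ratio of 1.54 (1.39 to 1.70). Nfyb, a subunit of the Y box factor, had 13.2 and 9.41, a ratio of 1.40 (1.28 to 1.53). Rfxank had 3.56 and 2.44, a ratio of 1.46 (1.20 to 1.77). Rfx5 was the lower one, at 2.82 and 3.90, a ratio of 0.724 (0.620 to 0.845). The same module serves MHC class II through the transactivator CIITA. Ciita showed 20 reads with PRP and 4 in control, at 0.0523 and 0.0123 FPKM, and the interval of its ratio included 1 (0.907 to 39.9). Of 11 class II genes 3 passed the filter, 1 higher and 2 lower, with a median of -0.17, and the intervals of all 3 included 1. H2-Ab1 had 3.41 and 3.99 FPKM (interval of the ratio 0.688 to 1.06), H2-DMb1, a subunit of the peptide exchanger, had 2.52 and 2.96 (0.622 to 1.16), and Ctss, a protease of the class II route, had 1.65 and 1.51 (0.688 to 1.75). The invariant chain gene Cd74 had 6 reads in each library.

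In position, 7 of the 10 genes lie on chromosome 17, within the MHC, while Nlrc5 and Psmb10 lie on chromosome 8 and B2m on chromosome 2. Psmb9, Tap1, Psmb8 and Tap2 follow each other within 34.3 kb. Their exon overlaps with neighbours are small for Tap1 and Psmb9, which share 3.87% and 5.79% of their exon bases with each other on opposite strands. Over the 1352 kb from Tapbp to H2-D1 the tested genes other than the 10 lay on both sides of 0, with 40 higher and 25 lower of 65 and a median log2 fold change of 0.04. Their counting intervals lay above 1 for 18 and below 1 for 14. Of all tested genes 50.9% were higher, and of those with an interval 26.1% lay above 1 and 26.1% below. Within the cluster of 34.3 kb, Tap2 (0.08) differed less than its neighbours Psmb8 (0.38) and Tap1 (0.67).

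**Figure D4:**
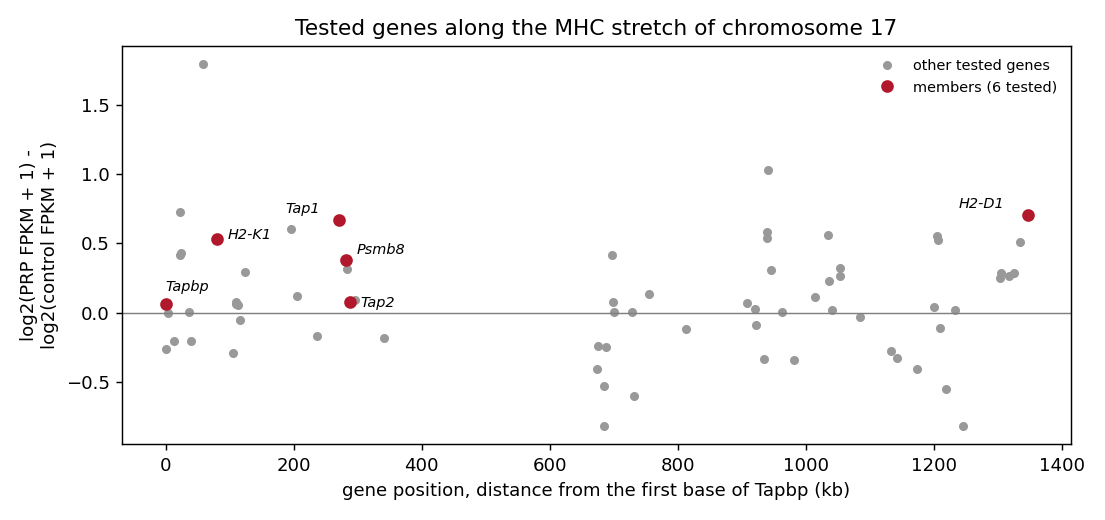
Log2 fold change (PRP minus control, with a pseudocount of 1 FPKM) of 71 tested genes by distance in kb from the start of Tapbp, with the 6 tested members of the pathway in red and the other 65 in grey. The grey points lie on both sides of 0, with a median of 0.04, and the highest is H2-K2.

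Several marker lists differed between the libraries too, and their part in the differences of the 10 genes was not tested. The FAP markers were present, from 4.76 to 593 FPKM in the PRP library. All 10 of 10 were lower in that library, each with an interval below 1, and their median log2 fold change was -0.42. Of the tested genes with an interval, 26.1% lay below 1. The summed FPKM of the FAP markers was 998 with PRP and 1269 in control. Pdgfra, the receptor that defines FAPs, had 19.8 and 28.0 FPKM, and Dpt, an extracellular matrix gene, had 18.8 and 50.2. Leukocytes express class I and the immunoproteasome at high levels, so their markers were counted. Their summed FPKM was 11.1 with PRP and 11.0 in control, and Ptprc, the pan-leukocyte gene CD45, was near 0 at 0.0109 and 0.0192. Ncr1 and Flt3 had no read in either library. Only 2 of 12 leukocyte markers passed the filter, Cd68 at 4.56 and 2.31 and Lyz2 at 4.91 and 7.57, in opposite directions. The 8 endothelial markers summed to 9.59 and 5.49 FPKM, and of these 2 passed the filter, Kdr at 4.23 and 1.499 and Tek at 4.73 and 3.56. Cldn5 had no read in either library, and Cdh5 (0.0949 and 0.0976) and Pecam1 (0.188 and 0.0470) were near 0. Of the myogenic markers 3 passed, Acta1 at 15.1 and 11.1, Des at 2.91 and 3.39, and Tnnc1 at 21.2 and 8.75. Pax7 and Myog had no read in either library. Of the platelet and erythroid markers 1 passed, Gp1bb at 0.872 and 2.26, whereas Ppbp and Gp9 had no read in either library.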

How the data were processed

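Per the labels, TRIzol was used to extract RNA, and a KC-Digital kit served to prepare stranded mRNA libraries. According to the submitters' processing notes and the study's methods, the authors used fastp 0.23.4, STAR 2.5.3a on mm10 and featureCounts. The deposited values are FPKM per gene. The annotation release and the step from counts to FPKM are not given in the sources used here.

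Identifiers matched GENCODE M21 (GRCm38) for 41492 genes (93.7%), and 93.7% of genes in each library gave whole reads within 0.001 reads. Even read numbers were in excess (79.3% and 80.3% of genes with up to 8 reads), so fragments were taken as reads divided by 2. The recovered reads served for counting intervals and depth alone. Changes of a ratio of 2 genes carry a Wald interval on the log scale. The pseudocount was 1 FPKM and the filter a mean FPKM of 1. With 1 library per group no test was run.

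The 10 genes, the pathway lists and the alternatives were chosen with earlier results of these data known. Of each list the 3 tested genes with the largest log2 fold change in size were named, together with the subunits and regulators that pair with the 10 genes. Other genes named were chosen after their values were seen. Some items that these rules would name are not reported here. Alternatives were a pseudocount of 0.1 or 5, a filter of 5 or none, rescaling to the same sum, centring on the median gene, rescaling without mitochondrial and the 50 most abundant genes, fold thresholds of 1.5 and 4, and reads not divided by 2. Chosen after seeing the data were principal transcript lengths, sums over heavy chains, with and without the H2-M genes, and the shortened response element. Python 3.11.15, NumPy 2.4.6, pandas 2.3.3, SciPy 1.17.1 and matplotlib 3.10.9 were used, and the procedures were tested on simulated data.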

Additional observations from a re-analysis of the deposited data

How the results depend on the processing

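No paired analysis was possible because neither PRP nor control has a second library. Of the 9 genes that passed the filter, 0 were at least 2-fold higher on the log2(FPKM + 1) scale, and 3 passed a fold threshold of 1.5. The number stayed at 0 under the other alternatives run, which were the pseudocounts, filters, scalings and the 4-fold threshold. The median log2 fold change lay between 0.30 and 0.48. With a pseudocount of 5, the log2 fold change of Tap1 was 0.30 and that of Nlrc5 0.38. No gene of the 9 that passed the filter changed sign under any of these settings. The scalings moved the median of all tested genes to between -0.02 and 0.01. Per length of the principal transcript, chosen after seeing the data, Psmb8 stood at 24.7% of Psmb5 with PRP and 20.0% in control, Psmb9 at 3.85% and 1.68% of Psmb6, Psmb10 at 15.4% and 12.8% of Psmb7, Tap1 at 75.04% and 40.8% of Tap2, and B2m stood at 0.460 and 0.535 of H2-K1 with H2-D1. Depth limits Psmb9 most, with 36 reads in the control library.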

Other observations

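Genes that tell T cells and natural killer cells how to respond to a class I bearing cell were mixed in direction. Of 9 such genes with an entry, 7 passed the filter, 4 higher and 3 lower, with a median log2 fold change of 0.08. Cd274, which encodes the inhibitory ligand PD-L1 and is itself induced by interferon, had 6.40 FPKM with PRP and 4.03 in control, a ratio of 1.59 (1.36 to 1.86). Cd80, a costimulatory ligand, had 2.64 and 1.98, a ratio of 1.33 (1.06 to 1.68). Raet1e, a ligand of the activating receptor NKG2D, had 2.89 and 2.41, a ratio of 1.20 with an interval that included 1 (0.903 to 1.59). The 3 lower genes were Raet1d, Ulbp1 and H60b. Their ratios were 0.893, 0.920 and 0.835, and each interval included 1.

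The following heavy chain genes outside the lists were chosen after their values were seen. H2-Q5 had 2.85 FPKM with PRP and 0.626 in control, from 182 and 34 reads, a ratio of 4.55 (2.69 to 8.16). H2-K2, a neighbour of H2-K1, was listed under 2 identifiers, at 15.8 and 3.84 FPKM under the first and at 9.38 and 2.27 under the second, ratios of 4.11 and 4.13. The values of H2-K2 did not give whole reads, and 36.4% of the 50-base stretches of H2-Q5 occur in another gene, so how reads were divided among these copies was not tested.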
